A study of Mus musculus with 2 samples.

Results

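The semaphorins, ephrins, Slits and netrins and the receptors that read them were examined in mouse cerebral cortex. The genes were chosen by symbol alone, which gave 71 of the 55536 annotated genes measured, all of them among the 22015 protein-coding genes of the nuclear genome. They comprised 20 semaphorins, 11 plexins and neuropilins, 14 Eph receptors, 8 ephrins, 7 Slits and Robos, and 11 netrins, netrin-Gs, Unc5 receptors and Dcc. Counted by role, 37 were ligands and 34 were receptors.

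RNA came from the left cortex of 2 female B6CASTF1/J animals aged 36 days, the F1 hybrid of the C57BL/6J and CAST/EiJ strains, and no treatment or other group is given in the labels. Each animal gave 1 library of total RNA from 300 ng of input, with ribosomal RNA depleted and ERCC spike-in RNA added. Expected counts (reads, divided where a read fits several genes) totalled 35200000 in replicate 2 and 29400000 in replicate 1. There is 1 group of 2 mice, so levels are described and the mice are compared with each other by size, without p-values. Whole tissue was extracted, and fewer cells of a type cannot be told apart from less RNA per cell.

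Guidance molecules steer growing axons by attraction and repulsion. Semaphorins signal through plexins, with neuropilins as co-receptors for the secreted class 3 members. Ephrins and Eph receptors signal in both directions at cell contacts, Slits repel axons through Robos, and netrins act through Dcc and the Unc5 receptors. In the mature cortex several of these genes are also known from synapses, dendritic spines, blood vessels and glia.

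The tissue carried markers of cortical excitatory neurons. Slc17a7, a vesicular glutamate transporter gene, had 643 TPM in replicate 2 and 615 TPM in replicate 1. TPM is a length-corrected share of all transcripts in a library. The transcription factor genes Tbr1, Neurod6 and Emx1 had 62.0, 22.6 and 18.3 TPM in replicate 2 and 67.7, 27.95 and 19.2 TPM in replicate 1. Of the marker lists for other cell types and regions, choroid plexus, red blood cell and striatum had the median log2 ratios between the mice furthest from 0, in library-scaled counts. In summed TPM other lists differed more than striatum. The 5 oligodendrocyte markers had 1485 TPM in replicate 2 and 1990 TPM in replicate 1, and the 2 hippocampal markers 3.61 and 5.51 TPM. Of the hippocampal markers, Spink8 had 2 counts in replicate 2 and 16 in replicate 1, and Prox1 had 533 and 503. The choroid plexus markers summed to 9.82 TPM in replicate 2 and 72.7 TPM in replicate 1, most of it Ttr, with 228 counts in replicate 2 and 1424 in replicate 1. Folr1 had 5 counts in replicate 2 and 11 in replicate 1, and Kl had 143 and 166. The 4 haemoglobin genes summed to 455 TPM in replicate 2 and 862 TPM in replicate 1. The 4 striatal markers summed to 26.5 TPM in replicate 2 and 25.2 TPM in replicate 1, and all 4 were higher in replicate 2 in library-scaled counts (median log2 ratio 0.46, range 0.16 to 0.54). The 3 thalamic markers summed to 15.5 TPM in replicate 2 and 21.3 TPM in replicate 1, and all 3 were lower in scaled counts (median -0.10).

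Nearly the whole guidance system was expressed in this cortex. A level of at least 1 TPM in both mice was reached by 68 of the 71 genes, while 57.9% of all nuclear protein-coding genes reached it. The 3 genes below it were Epha1, with 9 counts in replicate 2 and 4 in replicate 1, Efna4, with 2 and 4 counts, and Epha2, at 0.60 and 0.73 TPM from 49 and 43 counts. Over the 71 genes the median level stood at 10.6 TPM in replicate 2 and at 14.1 TPM in replicate 1. The 37 ligands had a combined 526 TPM in replicate 2 and 604 TPM in replicate 1, and the 34 receptors 668 and 809 TPM. Among those expressed it was 11.5 and 14.4 TPM, against 14.2 and 16.5 TPM for all expressed nuclear protein-coding genes in the same 2 libraries.

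Levels spanned a wide range within this set. A mean of 50 TPM or more was found for 5 genes, 36 lay between 10 and 50 TPM, 27 between 1 and 10 TPM and 3 below 1 TPM. Epha4, Sema7a and Ephb6 were the highest 3 genes, in that order, in each mouse. Robo2 and Sema6b came next and exchanged places between the mice. Of the 10 highest genes in replicate 2, 9 were also among the 10 highest in replicate 1. Further down the order was not resolved, since 59 of 70 neighbouring genes had ranges over the 2 mice that overlapped.

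The Eph receptors, tyrosine kinases that bind ephrins, included 2 of the 3 highest genes. Epha4, a receptor for ephrins of both classes, had 73.6 TPM in replicate 2 and 93.8 TPM in replicate 1 (mean 83.7 ± 14.2 TPM, SD, n = 2), from 8798 and 8374 counts. Ephb6, whose kinase domain lacks catalytic activity, had 63.3 TPM in replicate 2 and 81.2 TPM in replicate 1. Epha5 followed at 35.1 and 39.4 TPM in replicates 2 and 1, and Epha7 at 33.9 and 36.5 TPM. Ephb1, at 13.2 TPM in replicate 2 and 15.3 TPM in replicate 1, stood above Ephb2, at 6.87 and 9.39 TPM, and the ranges of the 2 genes did not overlap. Epha3 had 4.73 and 4.45 TPM in the same order, and the other 5 expressed Eph receptors had means from 1.95 TPM (Epha8) to 23.5 TPM (Epha6). Summed by class, the 9 EphA genes had 190.0 TPM in replicate 2 and 223 TPM in replicate 1, and the 5 EphB genes 95.8 and 119.5 TPM.

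Their ligands had a lower combined level, while the medians of the families were close, at 10.5 TPM for ephrins and 11.8 TPM for Eph receptors in replicate 2 and at 14.1 and 13.4 TPM in replicate 1. The 3 transmembrane ephrin-B genes summed to 56.3 TPM in replicate 2 and 56.6 TPM in replicate 1, and the 5 lipid-anchored ephrin-A genes to 42.4 and 55.7 TPM. Efnb2, an ephrin-B also known from arteries, had 27.9 TPM in replicate 2 and 28.4 TPM in replicate 1, and Efnb3 had 22.8 and 22.7 TPM. Efna3 had 20.4 TPM in replicate 2 and 23.9 TPM in replicate 1, and Efna5, a classical map-forming ephrin, 15.3 and 23.8 TPM. Efnb1, Efna2 and Efna1 had means from 3.39 to 5.56 TPM.

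Among the semaphorins the membrane-bound members held most of the RNA. The 13 genes of classes 4 to 7 summed to 274 TPM in replicate 2 and 323 TPM in replicate 1, and the 7 secreted class 3 genes to 34.9 and 45.4 TPM. Sema7a, which is anchored to the membrane by a lipid, had 65.8 TPM in replicate 2 and 84.4 TPM in replicate 1 (mean 75.1 ± 13.1 TPM, SD, n = 2). Sema6b, a transmembrane member, had 58.2 TPM in replicate 2 and 53.6 TPM in replicate 1. Sema4d, known from oligodendrocytes and immune cells, had 38.2 and 48.1 TPM in the same order. Its largest transcript share, 45.2% of TPM in replicate 2 and 45.8% in replicate 1, lay on a model with only 555 coding bases. Sema6a followed with 13.3 TPM in replicate 2 and 14.2 TPM in replicate 1. Of the secreted genes, Sema3a, the founding repellent of the vertebrate family, had 9.40 and 12.1 TPM, and Sema3e, the ligand of plexin-D1, 6.20 and 8.45 TPM. The remaining 14 semaphorins had means from 1.03 TPM (Sema3b) to 24.1 TPM (Sema4a).

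The plexins, the signalling receptors of semaphorins, were all expressed. The 9 plexins had a combined 198 TPM in replicate 2 and 246 TPM in replicate 1. Plxnd1 had 46.8 TPM in replicate 2 and 44.0 TPM in replicate 1, Plxna2 35.8 and 46.0 TPM, and Plxnb1 24.4 and 35.0 TPM. Plxna4 and Plxna1 were close to each other, with 25.5 and 22.8 TPM in replicate 2 and 31.9 and 36.1 TPM in replicate 1. Plxnc1, the receptor of Sema7a, had 15.1 TPM in replicate 2 and 14.1 TPM in replicate 1, and Plxnb3, known from oligodendrocyte lineage cells, was the lowest plexin in each mouse at 3.98 and 6.86 TPM. Of the co-receptors, Nrp1 had 10.3 TPM in replicate 2 and 14.7 TPM in replicate 1, and Nrp2 had 7.71 and 5.51 TPM. Plxnb2 and Plxna3 had means of 18.6 and 9.54 TPM.

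Robo2 led the Slit and Robo genes. It had 53.1 TPM in replicate 2 and 63.8 TPM in replicate 1, while Robo1 had 20.6 and 22.0 TPM. The 3 Slits lay close together, Slit1 with 19.4 TPM in replicate 2 and 20.1 TPM in replicate 1, Slit3 with 17.7 and 22.5 TPM, and Slit2 with 15.9 and 16.1 TPM. Robo3, the Robo known for letting commissural axons cross the midline, had 8.75 TPM in replicate 2 and 20.3 TPM in replicate 1. Robo4, an endothelial member, had 3.08 and 3.71 TPM.

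Netrins themselves had the lowest combined level of the ligand classes, while netrin-Gs and Unc5 receptors were higher. The 4 secreted netrins summed to 14.0 TPM in replicate 2 and 14.7 TPM in replicate 1. Ntn1 had 2.24 TPM in replicate 2 and 2.77 TPM in replicate 1, and its attractive receptor gene Dcc 5.79 and 7.26 TPM. Unc5a, a repulsive netrin receptor, had 39.0 TPM in replicate 2 and 43.1 TPM in replicate 1, and Unc5d had 18.6 and 18.7 TPM. The netrin-Gs are lipid-anchored synaptic adhesion proteins that do not bind the netrin receptors. Ntng2 had 39.1 TPM in each mouse, and Ntng1 had 11.8 TPM in replicate 2 and 10.2 TPM in replicate 1. Ntn3, Ntn4, Ntn5, Unc5b and Unc5c had means from 2.23 to 12.9 TPM.

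**Figure D1:**
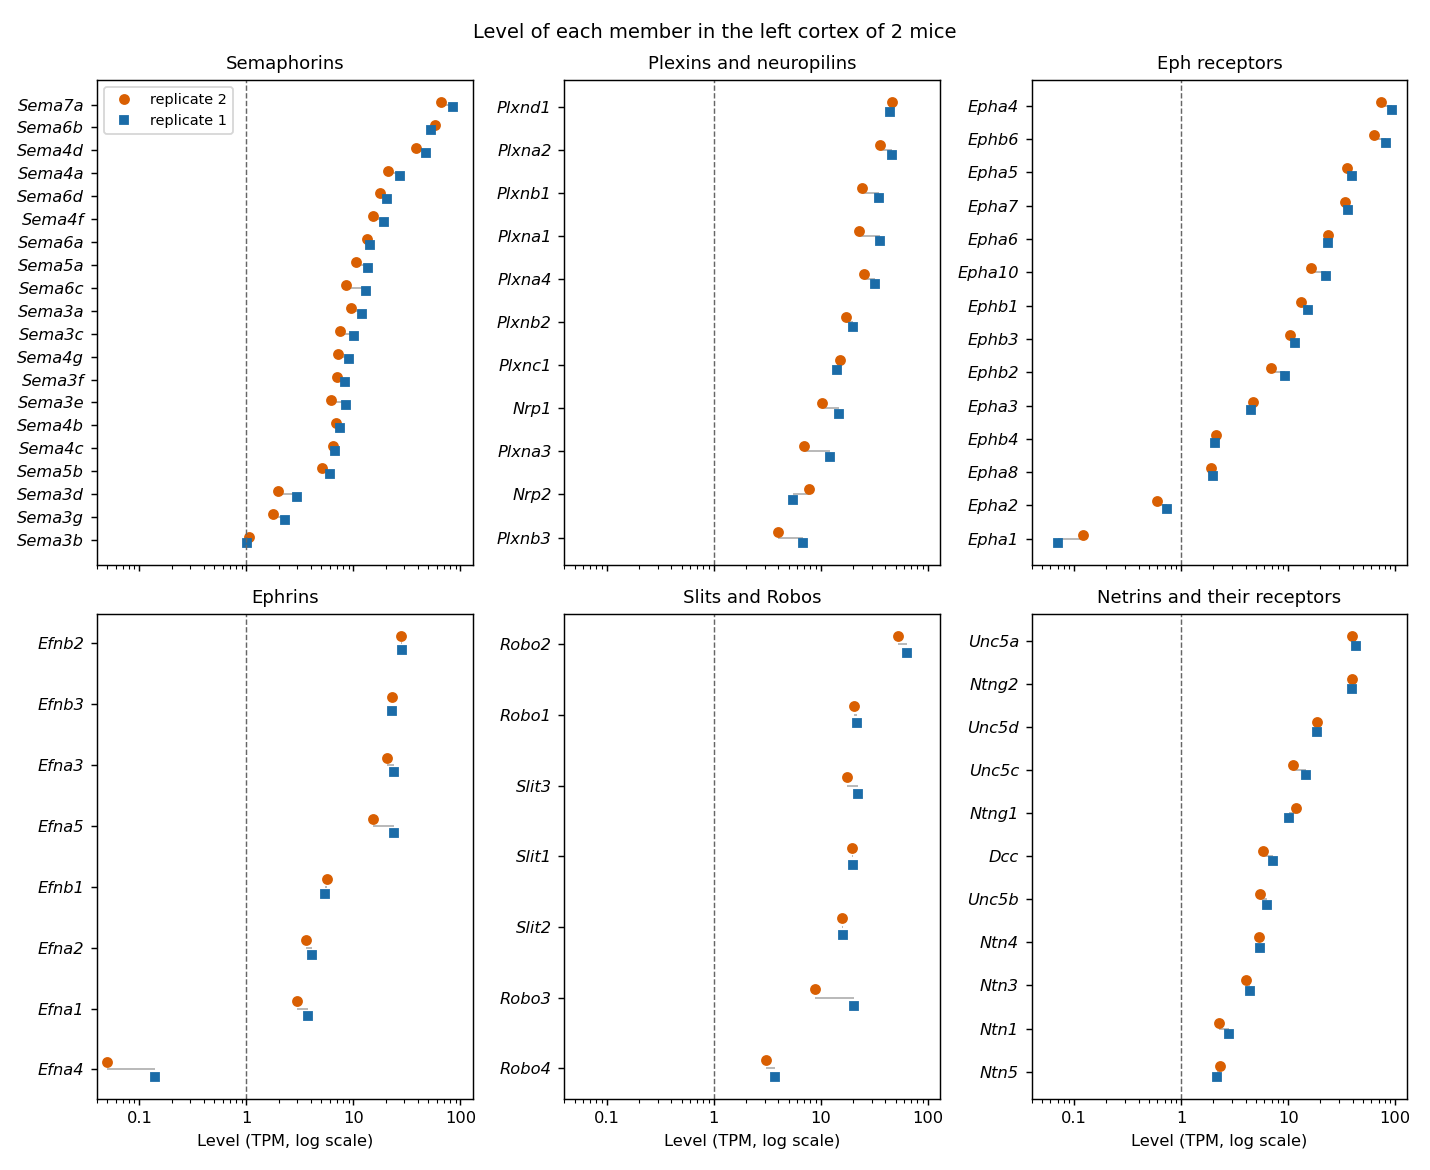
Level of each of the 71 genes in TPM (log axis), 1 panel per family, circles for replicate 2 and squares for replicate 1, with the grey line joining the mice and the dashed line at 1 TPM. Epha4, Sema7a and Ephb6 are highest in both mice, and Epha1, Epha2 and Efna4 lie left of the dashed line.

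Some of these levels rest on short transcript models, which turn few reads into much TPM. In 17 of the 68 expressed genes, transcripts under 1000 nt held at least 20% of the gene's TPM in a mouse, as they did in 40.7% of all expressed nuclear protein-coding genes. In those genes the short transcripts held a median of 25.9% of TPM but 3.19% of counts in replicate 2, and 30.8% of TPM but 4.19% of counts in replicate 1. In Plxna1, a 372-nt retained-intron model had 0 counts in replicate 2 and 36.4 counts in replicate 1, and those counts made up 7.13 of its 36.1 TPM. In Ephb6, a 459-nt partial model with 150.1 and 168 counts held 16.5 TPM in replicate 2 and 24.98 TPM in replicate 1. Without such transcripts Sema7a and Epha4 were nearly level, with 65.5 and 65.7 TPM in replicate 2 and 83.8 and 82.8 TPM in replicate 1, and Plxnd1 moved to rank 12 of the 71 genes, against rank 6 with them.

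Several receptors and ligands were present as more than 1 protein-coding form, and the sequences at which the forms part are given here because the results below turn on them. The genes were chosen for this after their transcript values were seen. Bases are coding strand, 5′ to 3′, from the GENCODE M21 transcripts (build mm10), with shared bases in lower case and positions those of the first form listed. In the first 2 genes capitals mark the start of the bases that differ, and in the other 2 genes they mark the bases that only the longer form holds.

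The first set shows Epha7, on the plus strand of chromosome 4, 28813131 to 28967499, from coding base 1778. The long form (Epha7-201, 998 codons) runs on into the kinase domain, and both short forms (Epha7-202, 610 codons, and Epha7-204, 626 codons) stop before it. The sequence of Epha7-202 is shown to its stop codon, and the other sequences show the first 60 differing bases.
Epha7-201: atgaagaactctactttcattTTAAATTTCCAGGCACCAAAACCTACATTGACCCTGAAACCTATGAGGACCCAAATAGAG
Epha7-202: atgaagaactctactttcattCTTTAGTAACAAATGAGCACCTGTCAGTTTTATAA
Epha7-204: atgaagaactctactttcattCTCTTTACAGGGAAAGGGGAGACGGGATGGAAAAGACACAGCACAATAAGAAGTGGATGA

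The second set shows Nrp2, on the plus strand of chromosome 1, 62703285 to 62818695, from coding base 2405. The forms known as a (Nrp2-204, 909 codons) and b (Nrp2-205, 901 codons) share the extracellular domains and differ in the membrane-spanning and intracellular end.
Nrp2-204: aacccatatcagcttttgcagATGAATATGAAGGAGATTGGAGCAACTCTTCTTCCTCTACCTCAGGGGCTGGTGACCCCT
Nrp2-205: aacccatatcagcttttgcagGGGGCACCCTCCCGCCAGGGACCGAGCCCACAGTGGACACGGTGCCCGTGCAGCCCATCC

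The third set shows Unc5a, on the plus strand of chromosome 13, 54949411 to 55006018, from coding base 703. The 168 bases in capitals encode a thrombospondin type repeat of the extracellular part and are present in the form of 898 codons and absent from the form of 842 codons.
Unc5a-201: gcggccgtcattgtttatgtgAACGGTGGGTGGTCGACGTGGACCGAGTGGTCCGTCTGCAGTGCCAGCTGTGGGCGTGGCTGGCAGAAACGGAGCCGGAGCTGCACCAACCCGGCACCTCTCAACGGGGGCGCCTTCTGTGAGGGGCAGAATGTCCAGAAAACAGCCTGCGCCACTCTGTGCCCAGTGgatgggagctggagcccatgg
Unc5a-202: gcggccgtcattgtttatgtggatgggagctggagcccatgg

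The fourth set shows Efna5, on the minus strand of chromosome 17, 62604184 to 62881317, from coding base 466. The 81 bases in capitals lie between the receptor-binding domain and the membrane anchor and are absent from the form of 201 codons.
Efna5-201: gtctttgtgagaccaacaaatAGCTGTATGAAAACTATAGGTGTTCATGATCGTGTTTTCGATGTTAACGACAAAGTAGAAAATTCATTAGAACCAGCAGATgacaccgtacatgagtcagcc
Efna5-202: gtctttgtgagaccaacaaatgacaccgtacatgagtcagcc

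By TPM, most Epha7 transcripts were of the forms without a kinase domain. The short forms, with the divergent ends printed above, held 60.96% of the gene's TPM in replicate 2 and 58.1% in replicate 1 (59.5% ± 2.06, SD, n = 2). The full-length forms held 22.9% in replicate 2 and 29.2% in replicate 1, and the rest lay on models with no complete coding region. In counts, which are not divided by the greater length of the full-length transcripts, there were 1323 short and 1296 full-length in replicate 2, and 1014 short and 1321 full-length in replicate 1. The short forms were thus the larger class in counts in replicate 2 alone. The second quantifier gave the short forms 58.7% in replicate 2 and 50.4% in replicate 1.

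Both ends of Nrp2 were in use at similar levels. The a forms held 50.8% of TPM in replicate 2 and 55.3% in replicate 1, and the b forms 40.5% and 38.5%. Both were higher in replicate 2 in counts, the a forms having 649 counts in replicate 2 and 369 in replicate 1, and the b forms 509 and 256. The single leading transcript was an a form in replicate 2 and a b form in replicate 1, the a forms being divided among several transcripts.

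In Unc5a the form without the thrombospondin repeat dominated. It held 91.1% of TPM in replicate 2 and 85.4% in replicate 1 (88.3% ± 4.00, SD, n = 2), from 3353 and 2568 counts, and the longer form had 247 and 277 counts. The second quantifier gave the shorter form 86.6% in replicate 2 and 83.9% in replicate 1. In Dcc the form of 1447 codons held 64.8% of TPM in replicate 2 and 58.0% in replicate 1, and the form of 1427 codons 29.5% and 34.2%. The longer Dcc form had 969 counts in replicate 2 and 804 in replicate 1, and the shorter 206 and 221. The second quantifier gave the longer Dcc form 57.0% in replicate 2 and 52.5% in replicate 1.

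In Efna5 the longer form held 74.1% of TPM in replicate 2 and 67.4% in replicate 1. The rest was the shorter form, whose only model is 643 nt long, so that its share rested on 54.4 counts in replicate 2 and 78.9 in replicate 1. By counts the longer form had 1127 in replicate 2 and 1179 in replicate 1. How much of the 81-base exon is skipped is therefore not resolved by TPM.

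**Figure D2:**
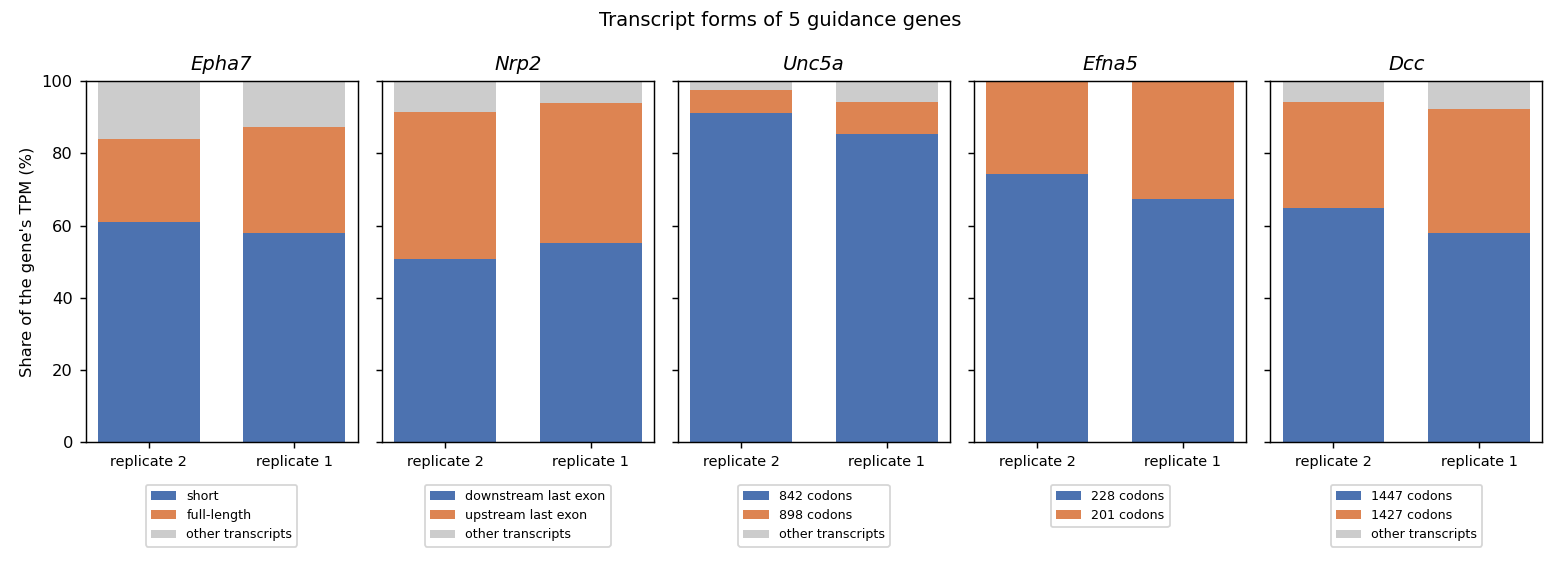
Share of each gene's TPM (y axis, percent) held by transcript forms of Epha7, Nrp2, Unc5a, Efna5 and Dcc, with replicate 2 as the left bar and replicate 1 as the right bar in each panel. The short forms are the larger class of Epha7 in both mice, at 60.96% and 58.1%, and 1 form takes 91.1% and 85.4% of Unc5a.

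Over the whole set, 46 of the 68 expressed genes had a leading transcript with at least 50% of TPM in both mice, as did 67.4% of all expressed nuclear protein-coding genes. The leading transcript was the same in both mice for 61 of the 68, and the background share was 89.5%. Of the 5 highest genes, Sema7a was nearly a single transcript, at 99.4% ± 0.19. Sema6b had 94.8% ± 1.88 on 1 transcript, Ephb6 71.6% ± 3.35 and Epha4 59.5% ± 1.06. Robo2 was divided, with 26.0% ± 1.10 on its leading transcript. Sema6b, whose 2 transcripts encode proteins of equal length, had 56.7% on that transcript in replicate 2 and 62.1% in replicate 1 by the second quantifier.

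By the mean share over the mice, the leading transcript was not a protein-coding one in 4 genes. In Ntng2 it was a transcript annotated as a target of nonsense-mediated decay, at 47.9% of TPM in replicate 2 and 40.6% in replicate 1, beside a coding transcript with 41.9% and 41.6%. In Ntng1 such a transcript held 23.5% in replicate 2 and 30.3% in replicate 1, in Robo4 31.1% and 27.7%, and in Sema3b 64.4% and 81.2% from 56.3 and 51.4 counts. The leading transcript differed between the mice in Nrp2, Ntng1, Ntng2, Robo2, Robo4, Sema4a and Slit1. It differed between the quantifiers in Epha5, Robo1, Robo2, Sema3b, Sema4a and Slit2, so the main form of these genes was not settled by the data. Ntng2 also shares exons with 6530402F18Rik on the same strand, which had 1198 counts in replicate 2 and 902 in replicate 1.

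The levels of these genes were close in the 2 mice once library size was taken into account, as were those of most genes. None of the 66 genes whose mean count reached 100 lay 2-fold or more apart (log2 ratios of replicate 2 over replicate 1, edgeR with TMM library sizes, no test), and 0.713% of the 12615 genes past the same count did. The 66 genes were evenly divided, 33 higher and 33 lower in replicate 2, with a median log2 ratio of 0.0087 and a median distance from 0 of 0.12. Over all 12615 genes the median log2 ratio was 0.042 and the median distance 0.13. The 66 genes are thus not set apart by having none 2-fold apart. The 95% exact binomial interval, which covers counting error only, lay above 0 for 23 of the 66 genes and below 0 for 15. Over all 12615 genes it lay above 0 for 29.5% and below 0 for 17.5%. In TPM, 57 of 71 genes were lower in replicate 2, where nuclear protein-coding genes together took 41.9% of all TPM, against 46.9% in replicate 1. The median of all expressed nuclear protein-coding genes was lower there too, at 14.2 TPM against 16.5 TPM in replicate 1. DESeq2's size factors also gave 33 higher and 33 lower, and none 2-fold apart. Scaling by spike-in totals lowered the ratios alike, by a median of 0.47 (a shift of -0.47 on the log2 scale), and left 1 of the 66 genes higher and 65 lower. The directions below are relative to the other genes of each library. Of the 33 genes that were higher in scaled counts, 22 were lower in TPM. The share of all genes lower in TPM was not taken, so neither TPM count is read as particular to the guidance genes.

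Robo3 stood furthest apart and was lower in replicate 2. It had 869 counts in replicate 2 and 1488 in replicate 1, which is 25.4 and 49.6 CPM (counts scaled to library size) and a log2 ratio of -0.97 (95% counting interval -1.09 to -0.85). It was the single gene of the 66 at least 1.5-fold lower, a limit chosen after the values were seen, and 1.93% of all genes passed that limit in that direction. Its main coding transcript had 480 counts in replicate 2 and 750.2 in replicate 1, and its other coding transcript 103 and 0. The coding transcripts together had a log2 ratio of -0.56, closer to 0 than that of the gene. A transcript annotated for nonsense-mediated decay had 57.8 counts in replicate 2 and 324 in replicate 1, and the retained-intron models had 229 and 413. The second quantifier gave a log2 ratio of -0.92. Scaling by nuclear protein-coding totals gave -1.01 and scaling by spike-ins gave -1.43, both past 2-fold.

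Robo3 (ENSMUSG00000032128, mm10 chromosome 9, 37415669 to 37433246, minus strand) lies tail to tail with Robo4 (37401897 to 37415115, plus strand), with 0.554 kb between them. Robo4 had 251 counts in replicate 2 and 261 in replicate 1, a log2 ratio of -0.25 (-0.50 to 0.01). The median ratio of the 4 endothelial markers was -0.05. Ttr (log2 ratio -2.82), the 4 haemoglobin genes (median -0.67) and the nuclear RNA Malat1 (-0.95, from 218703 counts in replicate 2 and 368848 in replicate 1) were also lower in replicate 2, and their part in the Robo3 difference was not tested.

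Nrp2 stood furthest the other way. It had 1204 counts in replicate 2 and 642 in replicate 1, or 35.1 and 21.4 CPM, and a log2 ratio of 0.71 (0.58 to 0.86). It was the single gene at least 1.5-fold higher, where 1.16% of all genes were. Its partner Nrp1 went the other way, with 886 counts in replicate 2 and 938 in replicate 1, a log2 ratio of -0.27 (-0.41 to -0.14). The ratio of Nrp1 to Nrp2 in TPM was 1.33 in replicate 2 and 2.66 in replicate 1.

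Of the next genes, those higher in replicate 2 were Ntng1, Epha3, Sema6b and Ntng2. Ntng1 had 939 counts in replicate 2 and 607 in replicate 1 and a log2 ratio of 0.44 (0.29 to 0.59). Epha3, a receptor for ephrin-A ligands, had 572 and 377 counts and a ratio of 0.41 (0.22 to 0.60). Sema6b had 5321 counts in replicate 2 and 3608 in replicate 1, a ratio of 0.37 (0.31 to 0.43), and Ntng2 had 1611 and 1134 counts, a ratio of 0.31 (0.20 to 0.42). Both netrin-Gs were thus higher in replicate 2 in counts, although Ntng2 had 39.1 TPM in each. With spike-in totals all 4 ratios lay just below 0, from -0.15 for Ntng2 to -0.03 for Ntng1, and that of Nrp2 was 0.25. The striatal markers were also higher in replicate 2, and their part in these differences was not tested.

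The next genes lower in replicate 2 were Plxnb3 and Efna5. Plxnb3 had 579 counts in replicate 2 and 732 in replicate 1, a log2 ratio of -0.53 (-0.69 to -0.37). Its retained-intron models had 105 counts in replicate 2 and 182 in replicate 1, and its other transcripts had a log2 ratio of -0.41. The oligodendrocyte markers were lower in 4 of 5 cases, with a median of -0.12 and a range of -0.34 to 0.02. Their part in the Plxnb3 difference was not tested. Efna5 had 1181 counts in replicate 2 and 1258 in replicate 1, a ratio of -0.28 (-0.40 to -0.17).

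By family the medians stayed near 0. They ran from -0.06 in the 19 semaphorins and the 11 plexins and neuropilins that passed the count minimum to 0.16 in the 7 ephrins. All 6 class 3 semaphorins past the minimum had ratios below 0, from -0.19 for Sema3e to -0.03 for Sema3f, although the second quantifier put Sema3c at 0.01. The counting intervals of Sema3c, Sema3d, Sema3f and Sema3g included 0. All 3 ephrin-B genes were above 0, from 0.23 to 0.28, but below 0 with spike-in totals. All 3 Slits were above 0, from 0.02 to 0.13, but below 0 with spike-in totals. The counting interval of Slit3 included 0, and Slit3 was at -0.02 with nuclear protein-coding totals. These shifts are small beside the 2-fold rule. The share of all genes with a ratio above or below 0 was not taken, so these directions are not read as particular to a family.

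**Figure D3:**
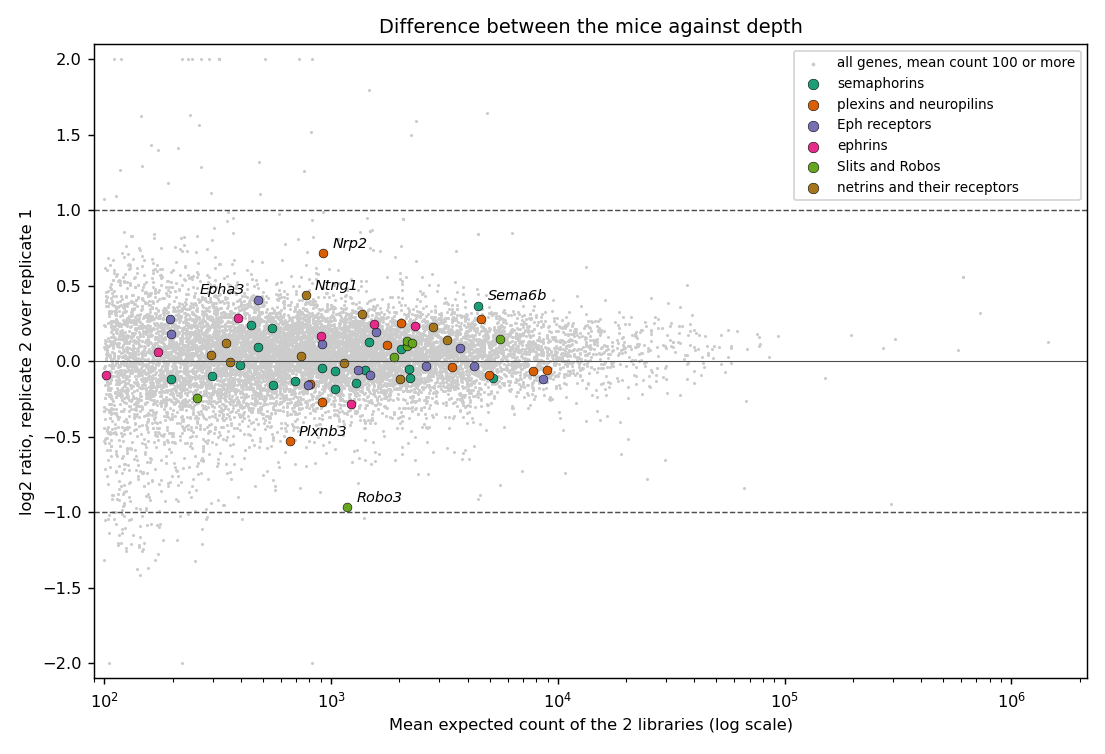
Log2 ratio of replicate 2 over replicate 1 (y axis) against the mean expected count (x axis, log scale) for the 66 genes whose mean count reached 100, coloured by family, over all 12615 such genes in grey; dashed lines mark 2-fold, and grey points beyond 2 are drawn at the edge. Robo3 lies just inside the lower dashed line, and Nrp2 is the highest coloured point.

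Ligand and receptor pairs and family pairs were compared within each mouse on the length-corrected scale. In 9 of 16 pairs the first gene was higher in both mice, and in 6 it was lower in both. Plxna4 to Plxna1 lay on both sides of 1, at 1.12 in replicate 2 and 0.884 in replicate 1. Without transcripts under 1000 nt, the ratio of Plxna4 to Plxna1 was 1.12 in each mouse. Sema7a exceeded its receptor gene Plxnc1 by a ratio of 4.36 in replicate 2 and 5.97 in replicate 1. Sema3e was far below its receptor gene Plxnd1, at 0.133 in replicate 2 and 0.192 in replicate 1, a mean of 0.162 that becomes 0.248 without transcripts under 1000 nt. Sema3a lay slightly below Nrp1, at 0.914 and 0.822. Sema4d exceeded Plxnb1 by 1.56 in replicate 2 and 1.37 in replicate 1. That order depends on a Sema4d transcript with only 555 coding bases, which held 45.2% of the gene's TPM in replicate 2 and 45.8% in replicate 1. Plxnb1 in turn had 34.5% of its TPM in replicate 2 and 45.3% in replicate 1 on transcripts under 1000 nt. Without such transcripts the ratio of Sema4d to Plxnb1 was 2.06 in replicate 2 and 2.15 in replicate 1. Sema6a was below Plxna4 at 0.522 and 0.444. Ntn1 was below Dcc at 0.387 in replicate 2 and 0.382 in replicate 1.

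Within families the ratios were as follows. Robo2 exceeded Robo1 by 2.58 in replicate 2 and 2.90 in replicate 1, Epha4 exceeded Epha7 by 2.17 and 2.57, and Unc5a exceeded Unc5d by 2.103 and 2.31. Ephb1 exceeded Ephb2 by 1.92 in replicate 2 and 1.63 in replicate 1, and Slit1 exceeded Slit2 by 1.22 and 1.25. Efna3 exceeded Efna5 by 1.34 in replicate 2, and in replicate 1 was barely above it, at 23.85 and 23.79 TPM. Ntng1 was below Ntng2 at 0.302 in replicate 2 and 0.260 in replicate 1, and Efnb3 below Efnb2 at 0.817 and 0.8001. Without transcripts under 1000 nt the ratio of Efnb3 to Efnb2 lay on both sides of 1, at 1.01 in replicate 2 and 0.981 in replicate 1. Where transcript lengths differ, the order depended on the scale. Without a correction for length, in expected counts, Sema4d was below Plxnb1, Efna3 below Efna5 and Slit1 below Slit2, and Sema3a was above Nrp1.

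**Figure D4:**
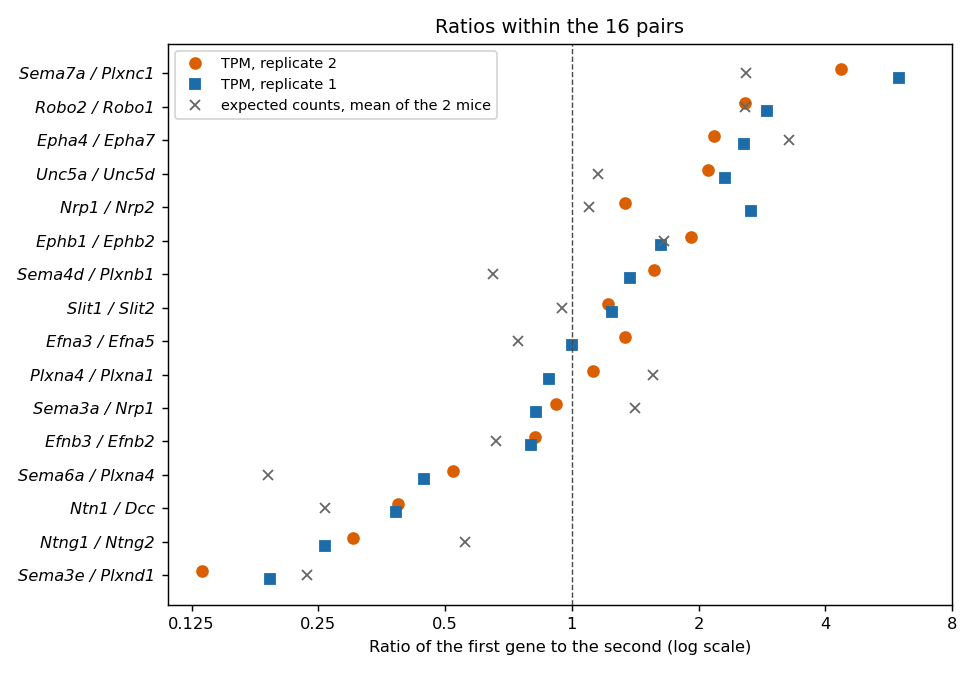
Ratio of the first to the second gene (x axis, log scale) in 16 pairs, in TPM with circles for replicate 2 and squares for replicate 1, and in expected counts with crosses for the mean of the mice. Circles and squares lie on the same side of 1 in all pairs but Plxna4 / Plxna1, and 4 crosses lie on the other side from their circle and square.

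Most genes of 2 lists of pathway partners, drawn up from general knowledge of guidance signalling, were expressed. Of 28 membrane and extracellular partners, 26 were expressed, with a median of 29.96 TPM. Of 56 cytoplasmic effectors, 55 were expressed, with a median of 42.6 TPM. The share expressed over all nuclear protein-coding genes was 57.9%. The highest partners were the adhesion protein genes Nrcam, with 206 TPM in replicate 2 and 243 TPM in replicate 1, Cntn1, with 129.6 and 138.9 TPM, and Lrrc4b, with 127 and 117 TPM. Lrrc4b belongs to the netrin-G ligand family with Lrrc4c, at 54.7 TPM in replicate 2 and 62.6 TPM in replicate 1, and Lrrc4, at 42.7 and 48.3 TPM. Membership does not show that Lrrc4b itself binds a netrin-G, and binding was not measured here. The highest effectors were Chn1, a Rac regulator downstream of Epha4, with 653 TPM in replicate 2 and 754 TPM in replicate 1, the actin-severing cofilin gene Cfl1, with 636 and 645 TPM, and Mical2, with 251 and 342 TPM.

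None of the 26 partners and none of the 55 effectors past the count minimum lay 2-fold apart by edgeR's TMM scaling. Over all 12615 genes past that minimum 0.713% did, so lists of this size are not set apart by having none. Their median log2 ratios were 0.03, with a range of -0.28 to 0.34, and -0.02, with a range of -0.34 to 0.48. Draxin, a secreted ligand of Dcc, was below 1 TPM in both mice, with 25 counts in replicate 2 and 9 in replicate 1. Cd72, an immune receptor for Sema4d, had 8 counts in each mouse. Trim67, which binds Dcc, had 0.83 TPM in replicate 2 and 1.10 TPM in replicate 1.

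Reads on retained-intron transcripts of guidance genes were fewer in replicate 2, as they were over the transcriptome. Such models are annotated transcripts that keep an intron, and this comparison was added after the values were seen. They drew 3693 of the counts of the 71 genes in replicate 2 and 4352 in replicate 1, or 2.75% and 3.76%. Over all nuclear protein-coding genes they drew 3.04% in replicate 2 and 4.05% in replicate 1. Of 33 guidance genes with a mean of at least 20 such counts, 27 had a lower share in replicate 2, and 83.8% of 5137 nuclear protein-coding genes did. The count is thus near the background and marks nothing particular to these genes. Malat1, which stays in the nucleus, had a log2 ratio of -0.95, and its relation to this was not tested.

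The size of the shift differed between genes. In Unc5c, a repulsive netrin receptor gene, retained-intron models held 9.87% of counts in replicate 2 and 19.9% in replicate 1, from 204 and 391 counts. In Sema5b they held 5.23% in replicate 2 and 11.4% in replicate 1, from only 27.5 and 48.8 counts. In Ephb2 they held 1.58% in replicate 2 and 4.46% in replicate 1, from only 12.7 and 35.0 counts. On its other transcripts Unc5c had 1867 counts in replicate 2 and 1579 in replicate 1, a log2 ratio of 0.05, against -0.12 over all its transcripts. In Robo3 the share hardly moved, at 26.3% in replicate 2 and 27.8% in replicate 1. Its other transcripts, including the one annotated for nonsense-mediated decay, had a log2 ratio of -0.94. The coding transcripts of Robo3 alone had -0.56. Ephb3, Nrp2, Ntn3, Plxnd1, Sema5a and Sema6a were the 6 genes with a share that was not lower in replicate 2. Epha6 is counted as lower at 13.9% in each mouse.

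**Figure D5:**
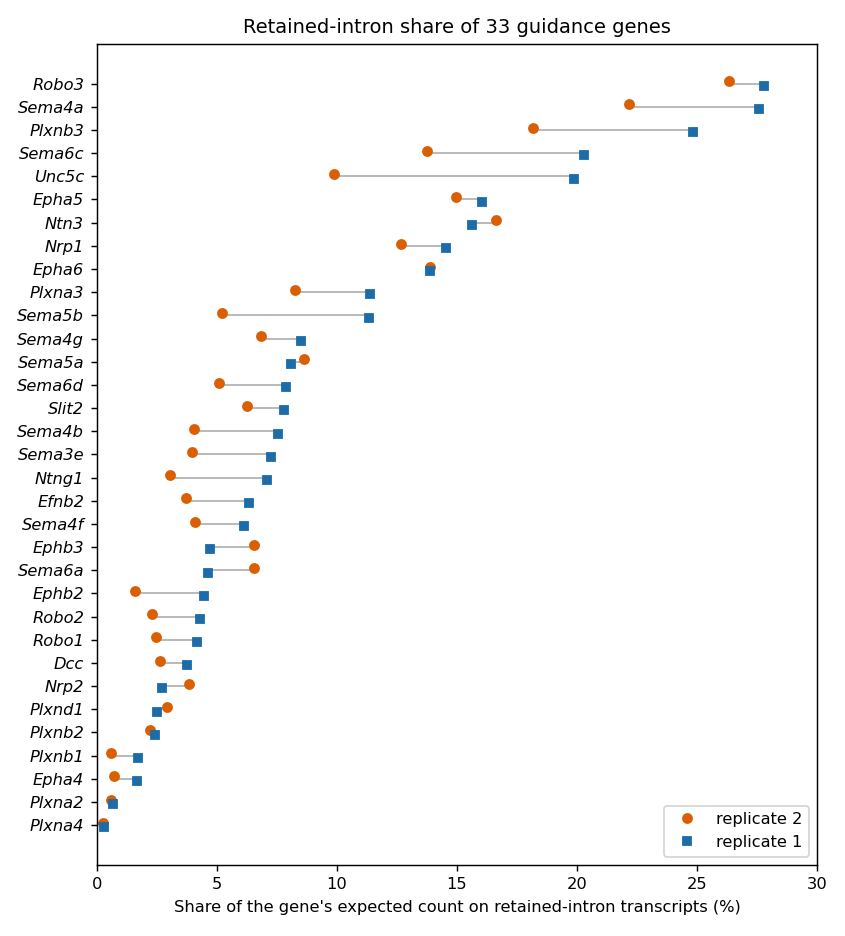
Share of each gene's expected count on retained-intron transcripts (x axis, percent) for the 33 guidance genes with a mean of at least 20 such counts, circles for replicate 2 and squares for replicate 1. The circle lies left of the square for 27 genes, with the widest gap in Unc5c.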

How the data were processed

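The mice, libraries and grouping are as labelled, with replicate numbers from the labels, which name a separate animal per library under 1 shared donor record. The build is mm10 per the labels. For the aligner, its version and whether counting used strand, the sources used here give nothing. The deposited gene and first transcript tables hold, per the file headers, expected counts, TPM, the percent of a gene each transcript takes, and a posterior standard deviation of the count, used here as a score of divided reads. The authors' second quantifier gave a further transcript table with estimated counts and TPM. TPM is scaled over all rows, short abundant RNAs included. Of the 71 genes, 68 had whole counts with no divided reads, the exceptions being Sema3a, Plxnc1 and Ntng2. Exons of 15 of the 71 overlap a gene on the opposite strand and those of 5 a gene on the same strand.

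Symbols and transcript types came from GENCODE M21. Counts were rounded and scaled by TMM (edgeR 4.0.16, R 4.3.3) over all annotated genes, with a prior count of 2. Ratios are log2 of replicate 2 over replicate 1, called at 2-fold with a mean count of at least 100. Each interval is a 95% Clopper-Pearson (exact) interval of the replicate 2 share, and covers counting error only. DESeq2 1.42.0 gave alternative size factors. The 2-fold rule and the retained-intron share were tested on simulated data as a check of the code. For the 2-fold rule the spread of the simulated counts was a fixed setting, not one estimated from the mice. Python 3.11.15, pandas 2.3.3, scipy 1.17.1 and matplotlib 3.10.9 were used.

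The genes and lists were chosen with earlier results of these data known. Values per library are given by rule for the 3 highest genes of each family, those past 2-fold, the 5 largest ratios each way, the pairs, the 3 highest partners per list, and isoforms of the 5 highest genes and of genes whose leading transcript is noncoding or differs between mice or quantifiers. The other genes are given by range, and exceptions are named where they appear.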

Additional observations from a re-analysis of the deposited data

How the results depend on the processing

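No paired analysis was possible because the series has 1 group. The count of expressed genes ran from 64 to 69 over the thresholds of 0.5 and 2 TPM, the second quantifier, rescaling to nuclear protein-coding genes, dropping transcripts under 1000 nt (chosen after seeing the data) and each mouse alone. The median level of the 71 genes, 12.4 TPM, was 19.3 TPM in the second quantifier and 27.7 TPM when rescaled to nuclear protein-coding genes alone, and the cause was not tested. With 1 mouse left out it ran from 10.6 to 14.1 TPM. The number of genes 2-fold apart was 1 (Robo3) with spike-in totals and 1 with nuclear protein-coding totals, against 0 with TMM and with DESeq2 size factors, a lower count minimum of 10, no minimum, a prior count of 0.5 or the second quantifier. Spike-in totals moved the median log2 ratio of these genes to -0.46, against 0.0087, and that of all genes to -0.42, against 0.042. The first gene was higher in both mice in 7 to 10 of 16 pairs. In expected counts Sema3a/Nrp1 was 1.41, Sema4d/Plxnb1 0.6496, Efna3/Efna5 0.745 and Slit1/Slit2 0.9495, each on the other side of 1 from TPM. Leading transcripts passed 50% in 45 genes by the second quantifier, and 54 and 40 genes passed 40% and 60%. The second quantifier gave 26 of 33 genes a lower retained-intron share in replicate 2. Minimums of 10 and 50 such counts gave 30 of 39 and 19 of 24. With 2 libraries, differences below the counting interval, a median of 0.11 on the log2 scale either way, were not detectable at this depth. That interval leaves out variation between animals, dissections and library preparations, so it is not a limit above which differences were detectable.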

Other observations

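Guidance genes are long. Their median span on the genome was 56.6 kb, against 17.3 kb for all nuclear protein-coding genes. More than 100 kb was spanned by 33 of the 71 (46.5%), against 11.3% of nuclear protein-coding genes. Dcc spans 1097 kb, Epha6 952 kb and Robo1 738 kb, and the shortest are Ntn3 at 5.68 kb and Efna4 at 4.64 kb.

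Several of them are neighbours. Efna1, Efna3 and Efna4 follow each other on chromosome 3, with gaps of 32.8 and 10.4 kb, and their mean levels were 3.39, 22.1 and 0.095 TPM. Ephb2 and Epha8 are 93.4 kb apart on chromosome 4, with means of 8.13 and 1.95 TPM. Sema3b and Sema3f are 72.3 kb apart on chromosome 9, at 1.03 and 7.69 TPM.

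Promoters were read from RefSeq windows of 250 bases before to 50 bases after each start (GRCm38.p6), and 61 of the 71 genes had one. The ratio of CG pairs observed to those given by base composition was at least 0.6 in the best window of 39 of the 61 genes (63.9%), and in 52.5% of 16522 nuclear protein-coding genes. It was lowest in Robo4 at 0.106, Ntn5 at 0.132, Plxnb3 at 0.133 and Sema4d at 0.155. Of these Sema4d is among the highest genes of the set at 43.1 TPM, and the other 3 had means of 2.23 to 5.42 TPM.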
